A study of Mus musculus with 30 samples.

Results

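The genes of the red blood cell described here are the 4 adult globins Hba-a1, Hba-a2, Hbb-bs and Hbb-bt, the embryonic beta-like globin Hbb-bh1, the haem synthesis enzymes Alas2 and Fech, the anion exchanger Slc4a1 and the enzyme Bpgm. They were picked by name, and all 9 are rows of a table of 23013 genes measured in organs of mice with and without arthritis. Adult globins below means the summed level of those 4 rows.

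Expression was measured in 30 libraries of 8 organs by Seq-Well, in which single cells and barcoded beads settle into small wells. All 8 animals, as the titles number them, were male and of the strain DBA1/J. The arthritis mice (S1, S2, S6 and S7) carried collagen-induced arthritis (CIA) after 100 µg of bovine type II collagen in adjuvant and a booster on day 20, and had arthritis scores, summed over the limbs of a mouse, of 8 in S1 and S2, 3 to 4 in S6 and 3 in S7. H3, H4, H6 and H7 were healthy, scored 0 and, by the study's methods, received saline. By those methods the dissected organs of these adult mice were frozen and made into single cells after thawing, blood was reduced to mononuclear cells on a density gradient, and red cells were lysed in blood, spleen, thymus and lymph node. Lung, joint and skin had no lysis, and neither did the muscle of S1, whereas the muscle of H6 was lysed. Blood came from 4 healthy mice and from S2, S6 and S7, lymph node from the same 4 healthy mice and from S1, S2 and S7, and every other organ from 1 mouse per state: the joint of H3 and S1, and lung, muscle, skin, spleen and thymus of H6 and S1. Titles carry a closing tag, CIA in 13 libraries and 2CIA in 17, whose meaning the labels do not give; it is called the suffix here and treated as a batch.

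The deposited values had been smoothed over neighbouring barcodes before deposit, so a summed value is called a unit here and not a count, and levels are units in 1e6 units of a library (UPM). A library held 27 to 934 barcodes and 217494 to 7886790 units, and 13 of 8255 barcode sequences occurred in more than 1 library. In 19 libraries the rarest genes were mostly missing and in 11 they were kept, so a gene without units is reported only as listed at 0. A sum over a library cannot tell fewer red cells from less RNA per red cell. In the blood libraries T cell markers (Cd3e, Cd3d, Cd3g, Trac and Lck) summed to only 0 to 883 UPM, and neutrophil markers (S100a8, S100a9, Retnlg, Camp and Ngp) to 1363 to 72797 UPM.

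Red blood cells of the mouse expel their nucleus but keep globin messenger RNA while they are young reticulocytes. Haemoglobin joins alpha chains, made from Hba-a1 and Hba-a2, to beta chains, the adult genes of which are Hbb-bs and Hbb-bt in the reference genome, around haem groups. Alas2 starts haem synthesis in red cell precursors and Fech ends it by placing iron in the ring. Slc4a1 (band 3) exchanges chloride for bicarbonate across the red cell membrane and anchors its skeleton, and Bpgm makes the phosphate compound that lowers the oxygen affinity of haemoglobin. The spleen of the mouse can make red cells in adult life.

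The globins are near copies of each other, which bounds how far their rows can be read apart. The coding parts of Hba-a1 and Hba-a2 in the GENCODE vM21 transcripts (429 bases each) differed at 1 base, and all 74 bases annotated after the Hba-a1 stop codon were also present after that of Hba-a2. The coding parts of Hbb-bs and Hbb-bt (444 bases each) also differed at 1 base, but their stretches after the stop codon, which reads from the 3′ end mostly cover, shared no run over 8 bases. Hbb-bh1 shared 74.1% of its coding bases with Hbb-bs and 76.4% with Hbb-y, and no window of 50 bases with either. The division of units between Hba-a1 and Hba-a2 is therefore uncertain. That between Hbb-bs and Hbb-bt is less so only if the mice carry the reference copies. The beta genes Hbb-b1 and Hbb-b2, which some mouse strains carry instead, are not rows of the table, and the DBA1/J copies themselves were not analysed here.

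By the RefSeq gene table (GRCm38.p6), Hba-a1 (Entrez 15122) lies on chromosome 11 from 32283672 to 32284486 and Hba-a2 (110257) from 32296492 to 32297310. On chromosome 7, Hbb-bt (101488143) spans 103812524 to 103813923, Hbb-bs (100503605) 103826523 to 103827928 and Hbb-bh1 (15132) 103841638 to 103843162. Alas2 (11656) is on chromosome X at 150547417 to 150570622, Slc4a1 (20533) on chromosome 11 at 102348820 to 102365281 and Bpgm (12183) on chromosome 6 at 34476356 to 34505136.

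The 120 bases before the start of 5 of these genes are shown because they make the copies visible and hold letters known from red cell promoters. RefSeq gave promoters for 6 of the 9 genes. Capitals mark the CCAAT box, the box searched as TATAA, the motif of CACCC type searched as CCNCNCCC, and the GATA motif, searched as AGATAA with T also allowed first and G last. All were searched on both strands, and a match is a run of letters and no proof of binding.
Hba-a1, chr11:32283552-32283671, plus strand: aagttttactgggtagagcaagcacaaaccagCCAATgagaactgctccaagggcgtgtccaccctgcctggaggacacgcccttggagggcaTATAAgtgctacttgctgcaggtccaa
Hba-a2, chr11:32296372-32296491, plus strand: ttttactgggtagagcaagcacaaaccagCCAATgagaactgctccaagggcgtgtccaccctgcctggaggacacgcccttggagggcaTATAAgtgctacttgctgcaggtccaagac
Hbb-bs, chr7:103827929-103828048, minus strand: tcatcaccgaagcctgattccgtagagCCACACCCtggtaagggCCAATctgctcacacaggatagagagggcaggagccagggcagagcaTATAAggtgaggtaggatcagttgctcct
Hbb-bt, chr7:103813924-103814043, minus strand: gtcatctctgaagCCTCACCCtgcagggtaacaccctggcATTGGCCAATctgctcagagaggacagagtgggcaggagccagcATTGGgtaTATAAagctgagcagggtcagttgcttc
Alas2, chrX:150547297-150547416, plus strand: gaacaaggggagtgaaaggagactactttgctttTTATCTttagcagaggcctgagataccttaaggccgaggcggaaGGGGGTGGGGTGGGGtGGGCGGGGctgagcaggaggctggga

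The Hba-a1 and Hba-a2 stretches share a run of 117 bases, shifted by 3. All 4 adult globin stretches held TATAA, which 11.8% of 32851 promoters held within 120 bases of the start, and all 4 held CCAAT, held by 21.3%. A CACCC-type match stood before Hbb-bs and Hbb-bt and, on the other strand, at 4 places before Alas2, the leading 3 of which overlap, against 34.6% of promoters with any. The Alas2 stretch was the one of the 5 with a GATA match, a motif held by 12.8% of promoters.

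Adult globins made up 7.95% of all units of the series, and Hbb-bs alone held 74.3% of these. Ordered by the median over mice, the share was highest in blood (18.8% of units, range 3.57% to 51.6% over 7 mice), followed by spleen (0.0519% and 9.08%), joint (1.97% and 3.92%), muscle (1.41% and 2.79%), lymph node (0.0646%, range 0.00953% to 14.0% over 7 mice), thymus (0.0225% and 0.0279%), skin (0.00159% and 0.00479%) and lung (listed at 0 and 0.00419%). Most neighbours in this order overlapped: spleen reached into the range of blood, its values lay on either side of those of joint and muscle, and the range of lymph node enclosed those of joint, muscle and thymus. Thymus and skin did not overlap, with 1 mouse per state in each. The span within lymph node, 1473-fold from lowest to highest mouse, was wider than the 14.4-fold span within blood.

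**Figure D1:**
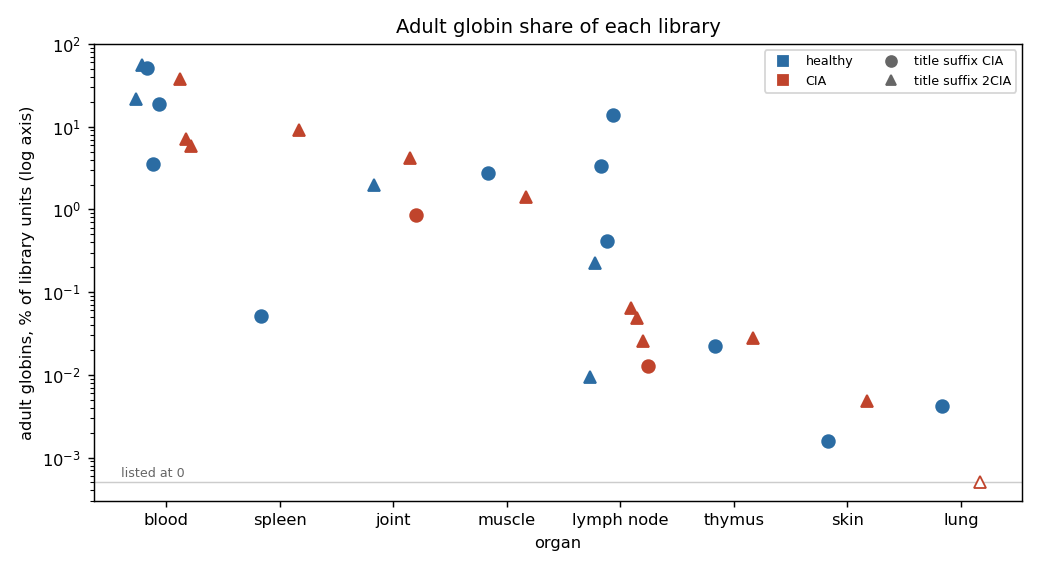
Adult globins (Hba-a1, Hba-a2, Hbb-bs and Hbb-bt) as percent of the units of each library, on a log axis, by organ. Each point is 1 library, blue for healthy and red for CIA mice, with the shape giving the title suffix; the open triangle is a lung library listed at 0. Blood sat between 3.57% and 56.1%, and 1 lymph node library, that of H7 at 14.0%, lay within the range of blood.

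The beta row Hbb-bs exceeded the alpha row Hba-a1 in every library with adult globin units. Among the 24 libraries with at least 500 adult globin units, the 2 alpha rows gave 3.41% to 23.8% of adult globin units (median 14.3%). In blood the alpha share was 15.5%, 16.3% and 17.0% in H3, H6 and H7, 18.8% and 19.9% in the libraries of H4, 14.7% in S2, and 7.78% and 8.81% in S6 and S7. Since a unit is a tag from 1 end of a transcript and not a chain of protein, these shares do not give the ratio of chains.

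Hbb-bt, the other adult beta row, stood at 3.81 to 15.2 units per 100 units of Hbb-bs over 23 libraries (median 9.59), and at 6.18 to 11.1 in blood. The rows are those of the reference genome, and how transcripts of the DBA1/J copies divide between them was not tested. Hba-a2 was found in 13 libraries. Among the 15 libraries with at least 500 units of Hba-a1 it gave at most 2.22 units per 100 units of Hba-a1, with a median of 0.327. With coding parts 1 base apart and the same letters after the stop codon, this low share may not be read as low use of the gene.

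Hbb-bh1, a gene of the embryonic yolk sac red cell, was above 0 in 19 libraries, with its highest level in the blood library of H4 with suffix 2CIA (17917 UPM). Per 100 units of Hbb-bs it ran from 0.8291 to 4.38 in blood. The 2 blood libraries of H4, which share 1 mouse number, gave 0.887 (suffix CIA) and 4.37 (suffix 2CIA), nearly the whole range of blood, although their adult globin shares were 50.7% and 56.1%. A second embryonic beta gene, Hbb-y, went with it at 31.3 to 49.5 units per 100 units of Hbb-bh1 in the 7 blood libraries where this could be set.

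Alas2 was far lower than the globins and followed them: it was above 0 in all 8 blood libraries, at 0.758 to 2.23 units per 1000 adult globin units, and in 15 libraries in all. Slc4a1 was above 0 in 7 libraries. It gave 4.84 units per 1000 adult globin units in the spleen of S1 but at most 0.289 in blood, where Alas2 gave up to 2.23, and in the spleen of S1 Slc4a1 (439.6 UPM) was above Alas2 (188 UPM). Fech and Bpgm, which other cells use as well, were above 0 in 14 and 16 libraries. Both occurred in libraries nearly free of globins, such as Bpgm at 21.9 UPM and Fech at 6.57 UPM in the skin of H6, where the adult globins together stood at 15.9 UPM.

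Over all 26 sums of a mouse and organ, the correlation of log2(UPM + 10) with the summed adult globins was 0.937 for Hbb-bh1, 0.896 for Alas2, 0.774 for Hba-a2, 0.639 for Fech, 0.554 for Bpgm and 0.457 for Slc4a1. These Pearson values are descriptions across organs and share the library totals. Among genes outside the 9, the 8 most like the adult globins were Hba-ps4 (r = 0.910), Hbb-y (0.878), Hbb-bh3 (0.865), Hbb-bh2 (0.784), Smim14 (0.731), Sorl1 (0.685), Ypel3 (0.682) and Gm15564 (0.676). The leading 4 are rows of globin genes or pseudogenes. Among those most like Alas2 were Hbb-y, Hbb-bh3 and Hba-ps4 (0.902 to 0.903), Hbb-bh2 (0.838), Cxcr2 (0.732), Il1b (0.729) and Rsad2 (0.718). Cxcr2 and Il1b are known from neutrophils and other myeloid cells.

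In 18 of 30 libraries adult globins were present in every barcode, and in several they also piled up in a few. In the lymph node of H7 the lowest of 249 barcodes held 1.45% adult globins among its units, the median 2.03% and the highest 59.9%. The 25 barcodes with the highest share (10%, rounded up) held 66.9% of the adult globin units of that library. In the joint of S1 (suffix 2CIA) the corresponding barcodes held 76.8%, and in the muscle of H6 89.6%. In blood the shares were wide: the median barcode stood at 60.1% and 43.6% in the 2 libraries of H4, at 31.1% in S2 and at 2.28% in H6.

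The barcodes richest in globin also differed in make-up. Alas2 was higher in the richest 10% than in the rest in all 15 libraries that had it, for example 853 against 295 UPM in the blood of H7. Hbb-bh1 per 100 units of Hbb-bs was higher there in 18 of the 20 libraries where both could be set and 0 in both parts in the other 2, and Hba-a1 per 100 units of Hbb-bs in 16 of 20. In the joint of H3, Hbb-bh1 gave 3.52 per 100 units of Hbb-bs in the richest 10% and 0.462 in the rest. Barcodes were smoothed over their neighbours, so those of a library are not separate observations and no test was made.

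**Figure D2:**
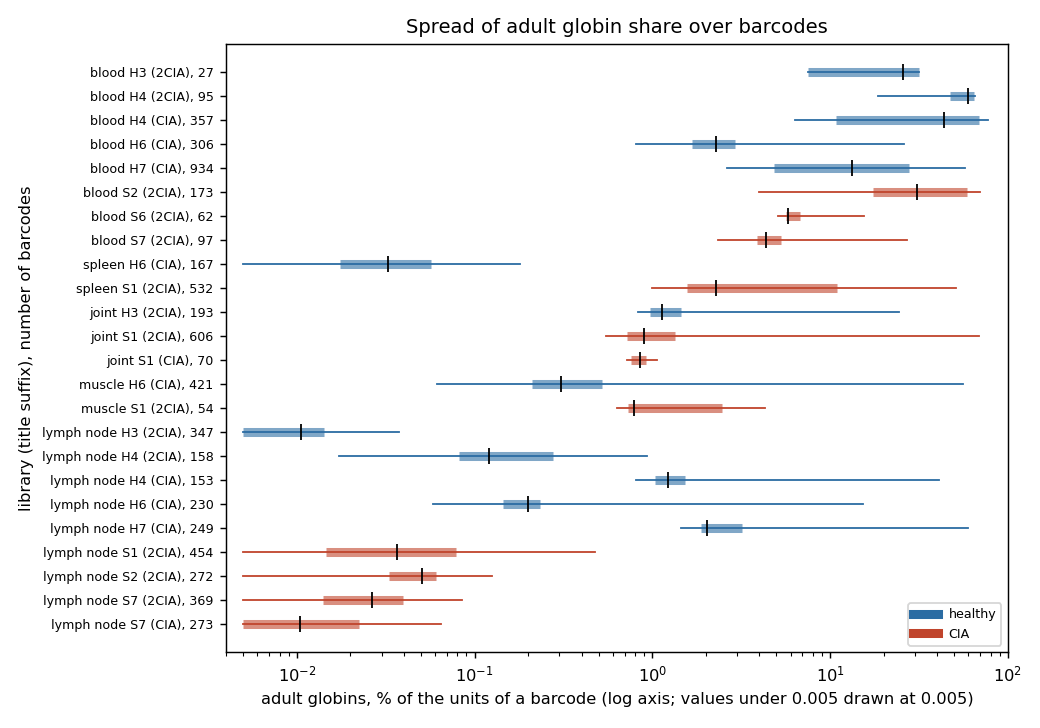
Share of adult globins among the units of a barcode, in percent on a log axis, for the 24 libraries of blood, spleen, joint, muscle and lymph node. Thin lines run from lowest to highest barcode, thick lines from the 25th to the 75th percentile and ticks mark medians. In lymph node H7 the median was 2.03% and the highest barcode 59.9%, whereas all barcodes of lymph node S2 lay at or under 0.125%.

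The first comparison set the blood of CIA mice against that of healthy mice, to ask whether their red cell genes differed. None of the 8 genes that passed the filter on low values was called, and the groups overlapped for all 9, where 8.18% of genes lay lower in every CIA mouse than in every healthy mouse and 1.29% higher. Hbb-bs stood at 166713, 373090.2, 26965 and 141877 UPM in the blood of H3, H4, H6 and H7, and at 294910.2, 59642 and 50183 UPM in S2, S6 and S7. The highest and lowest mouse were both healthy, and S2 lay far above S6 and S7. Hba-a1 was at 32929.6, 101118, 5777 and 32002.5 UPM in the healthy mice and at 55406, 5472 and 5112 UPM in the CIA mice. Alas2 was at 239, 537, 79.6 and 365 UPM against 287, 117 and 77.4 UPM. In these 3 genes H6 was the lowest healthy mouse, below or near S6 and S7. Hbb-bt was at 14460.2, 41210.2, 2932 and 14413 UPM against 27959.5, 5220.3 and 3104 UPM, and Hbb-bh1 at 5963, 5703, 1182 and 1176 UPM against 3543, 1086 and 925 UPM. Hba-a2 was at 258, 393, 28.1 and 84.2 UPM against 65.3 UPM in S2, listed at 0 in S6 and 34.6 UPM in S7. Bpgm was at 133, 181, 27.1 and 70.7 UPM in the healthy mice and Fech at 143, 31.4 and 123 UPM in H4, H6 and H7, and both were above 0 in S2 (102 and 135 UPM) and listed at 0 in S6 and S7.

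The tests used trimmed-mean scaled values on the log2(UPM + 10) scale, on which the median over all 4803 genes tested was already -0.63 (CIA minus healthy), and fitted all genes at once with limma. All 8 tested members had negative estimates, with a median of -1.35, and 1 of them, Hba-a2, had an unadjusted p under 0.05 against 10.1% of all genes. These were 487 genes, and 224 (without H7) to 1165 (without S2) when 1 mouse was left out. For Hba-a2 the difference was -2.29 ± 0.93 (SE, n = 4 and 3; limma adjusted p = 0.434), for Bpgm -2.05 ± 1.02 (limma adjusted p = 0.497), for Hba-a1 -1.88 ± 1.22 (limma adjusted p = 0.592) and for Hbb-bs -0.98 ± 1.98 (limma adjusted p = 0.875). With 1 mouse left out, the estimate of Hbb-bs ran from -2.42 (without S2) to -0.10 (without S6) and that of Hba-a1 from -3.64 to -0.81 (the same mice). In the same way Hba-a2 ran from -3.35 to -1.32 (without S2 and S6), Bpgm from -3.63 to -1.27 and Fech from -2.91 to -0.42 (both without S2 and S7), and none of these 5 was called. The other tested members lay between -1.37 and -1.23, with limma adjusted p-values from 0.529 to 0.708. Leaving out 1 mouse gave -2.88 to -0.44 for Hbb-bt, -2.60 to -0.60 for Hbb-bh1 and -2.43 to -0.69 for Alas2, without a call. Slc4a1, below the filter, was listed at 0 in H3, S6 and S7 and reached 24.6 UPM in H7 (two-sided exact permutation test, p = 0.314; the smallest p that 35 splits allow is 0.0286). Adjusted p under 0.05 was reached by 0.0833% of genes (4 of 4803), all of them higher in CIA: Retnlg, Ifitm3, Ifi27l2a and Ifi202b, named after their values were seen. Without the filter on low values, Hba-a1 and Hbb-bs were called lower in CIA (limma adjusted p = 1.37e-06 and 0.000923), among 12 genes called in all. The estimates and the values of the mice were unchanged and still overlapped, and only the set of genes used to fit the variance differed. Without the mean-variance trend neither was called (limma adjusted p = 0.624 and 0.792). The 2 calls are therefore not read as a difference.

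All 3 CIA blood libraries carry the suffix 2CIA. Among libraries of that suffix, adult globins stood at 21.4% and 56.1% in H3 and H4 and at 37.8%, 7.03% and 5.84% in S2, S6 and S7, and no member was called there either. Neutrophil markers summed to 5235 to 72797 UPM in CIA blood and 1363 to 5314 UPM in healthy blood, and monocyte markers to 3204 to 11258 against 219 to 3076 UPM. These take units from the same total as the globins, and their part in the globin values was not tested.

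**Figure D3:**
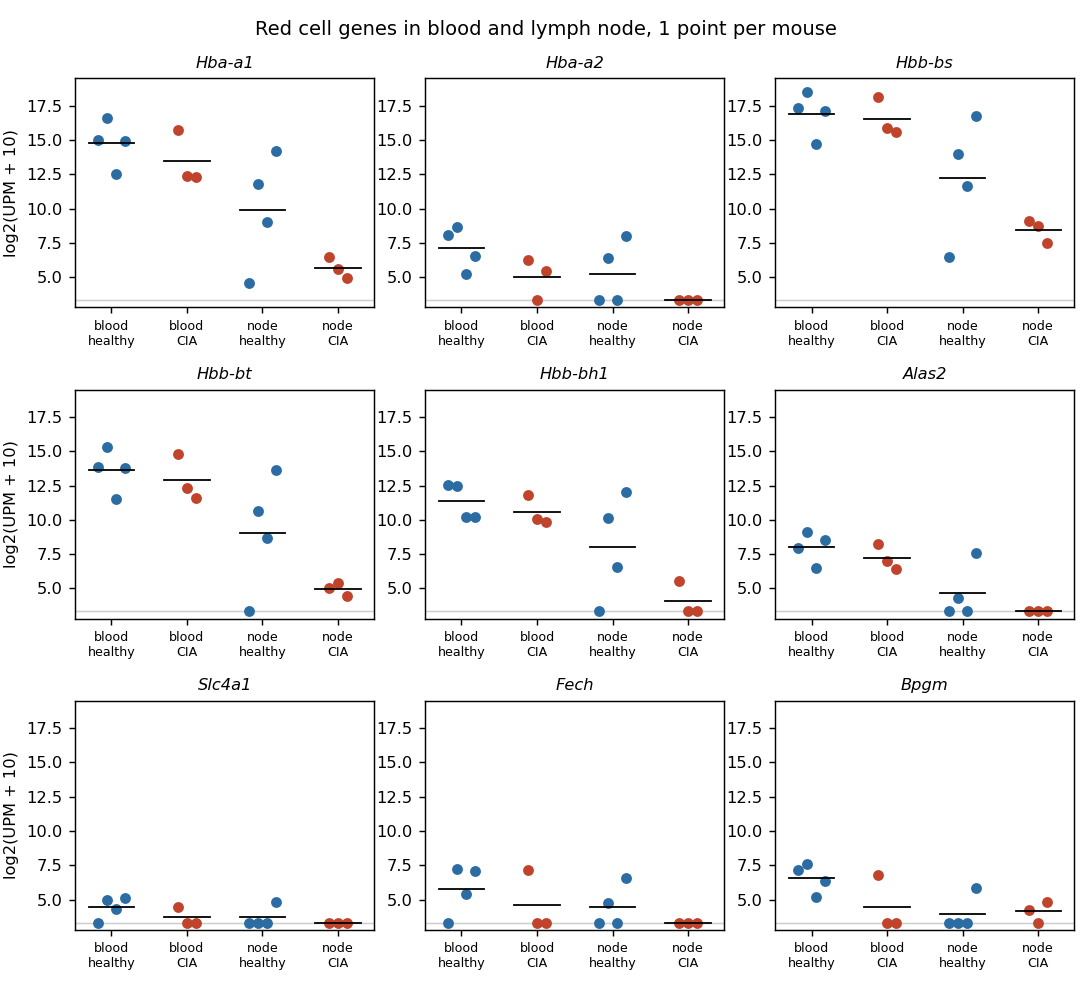
Levels of the 9 red cell genes as log2(UPM + 10), relative to library totals, in blood and lymph node. Each point is 1 mouse (healthy blue, CIA red), black lines are means and the grey line is a gene listed at 0. The groups of blood overlapped for every gene, and in lymph node the healthy mice spread from below the CIA mice (H3) to above them for Hba-a1, Hbb-bs and Hbb-bt.

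In lymph node the same question met a very uneven healthy group. Hbb-bs stood at 81.5, 16301, 3238 and 108280 UPM in H3, H4, H6 and H7 and at 545, 419 and 172 UPM in S1, S2 and S7. H4, H6 and H7 were all above the CIA mice, and H3 below them; for no member did the groups separate, as they did for 2.33% of genes (lower in CIA) and 3.44% (higher). Hba-a1 was at 13.8, 3490, 504 and 19357 UPM in the healthy mice and at 78.1, 37.9 and 20.5 UPM in the CIA mice, with H3 again lowest. Hbb-bh1 was at 1113, 82.2 and 4195 UPM in H4, H6 and H7, at 35.5 UPM in S1 and listed at 0 in H3, S2 and S7. Hbb-bt, listed at 0 in H3, was at 1584, 408 and 12407 UPM in H4, H6 and H7 and at 22.8, 31.3 and 11.7 UPM in the CIA mice. The other members were sparse: Hba-a2 was at 75.1 and 243 UPM and Fech at 16.5 and 86.4 UPM in H4 and H7, and Bpgm at 9.04 and 18.2 UPM in S1 and S7. In H4 Alas2 was at 10.0 UPM, and in H3 and H6 these genes and Slc4a1 were all listed at 0. Alas2, Slc4a1 and Bpgm had their highest value of all lymph nodes in H7, at 184, 18.1 and 47.8 UPM, and Alas2, Hba-a2, Slc4a1 and Fech were listed at 0 in all 3 CIA mice.

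No member was called between CIA and healthy lymph node, where 0.0197% of genes were (1 of 5064, Ifi27l2a, higher in CIA). The 6 tested members all had negative estimates, with a median of -3.85 against 0.08 over all genes. The differences on the scaled log2(UPM + 10) scale were -4.22 ± 1.40 for Hba-a1, -4.11 ± 1.44 for Hbb-bt, -3.97 ± 1.34 for Hbb-bh1 and -3.74 ± 1.44 for Hbb-bs (SE, n = 4 and 3; limma adjusted p = 0.970 for each of the 4). These 4 had unadjusted limma p-values under 0.05 (0.00771 to 0.0194), as did 4.15% of all genes. For Slc4a1, Fech and Bpgm, which were below the filter, two-sided exact permutation tests gave p = 1, 0.429 and 1.

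Without H7, the highest mouse, the difference of Hbb-bs was -2.23 and no member was called. The call changed when H3 was left out, and the difference when only 1 suffix was used. Without H3 the same 4 genes were called lower in CIA, at -6.03 to -5.52 on the log2 scale (limma adjusted p = 0.00489 for Hba-a1, Hbb-bs and Hbb-bt and 0.027 for Hbb-bh1). Over all genes, at most 7 were called with any 1 mouse left out. Without the filter on low values the 4 were called with all mice included (limma adjusted p = 0.0025 to 0.0215), among 9 genes in all. There the estimates were unchanged and only the set of genes used to fit the variance differed. Within the suffix 2CIA, adult globins stood at 0.00953% and 0.225% in H3 and H4 and at 0.0646%, 0.0488% and 0.0258% in S1, S2 and S7, and the difference of Hbb-bs was 0.03 (limma adjusted p = 0.998). Within the suffix CIA they stood at 3.33%, 0.415% and 14.0% in H4, H6 and H7 and at 0.0128% in S7, with only 1 CIA mouse and no test. The 2 libraries of the H4 lymph node, 3.33% (suffix CIA) and 0.225% (suffix 2CIA), differed 14.8-fold under 1 mouse number. T cell markers were at 1425 to 2648 UPM in healthy and 1152 to 2001 UPM in CIA lymph nodes, and neutrophil markers at 0 to 3140 and 87.2 to 1957 UPM, highest in H7.

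Lymph node was then set against blood, taking both states with equal weight. Hba-a1, Hbb-bs, Hbb-bt, Hbb-bh1 and Alas2 were lower in lymph node: 5 of the 8 tested members were called, all lower, where 2.74% of 4857 genes were called lower and 12.9% higher, and 31% had an unadjusted limma p under 0.05. The differences (lymph node minus blood, scaled log2 scale, n = 7 and 7) were -6.52 ± 1.05 for Hbb-bs, -6.47 ± 1.06 for Hba-a1, -6.36 ± 1.04 for Hbb-bt, -5.04 ± 0.93 for Hbb-bh1 and -3.71 ± 0.68 for Alas2 (SE; limma adjusted p = 0.000612, 0.000692, 0.000705, 0.00209 and 0.00175). The median over the tested members was -4.37, against 0.45 over all genes. No member separated the organs fully, as 0.597% of genes did with lymph node lower and 1.28% with it higher: the lymph node of H7 (108280 UPM of Hbb-bs) lay above the blood of H6, S6 and S7. Leaving out 1 mouse moved the difference of Hbb-bs from -7.28 (without H7, limma adjusted p = 0.000208) to -5.58, with 5 to 6 members called. Over all genes, 625 were called higher and 133 lower, and 271 and 163 when samples were scaled by the median of ratios.

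The rarer members fell short of the threshold. Hba-a2 differed by -1.94 ± 0.77, Bpgm by -1.70 ± 0.68 and Fech by -1.53 ± 0.79 (SE, n = 7 and 7; limma adjusted p = 0.0873, 0.0911 and 0.191), and Slc4a1, below the filter, gave p = 0.119 in a two-sided exact permutation test. Because 6 mice gave both organs, the fit was repeated with the mouse as a block: Hba-a2 was then called as well (-2.40, limma adjusted p = 0.0336) and the others kept their calls. Hba-a2 was also called without S6 (limma adjusted p = 0.0436) and over distinct profiles (0.0481), and with each library as its own sample Hba-a2 and Bpgm were both called (0.0171 and 0.0269). Without S2 the differences of Bpgm and Fech were -0.82 and -0.78. With healthy mice alone (4 and 4) no member was called, at -5.03 for Hbb-bs and -3.59 for Alas2 (limma adjusted p = 0.222 and 0.193), and 2 genes of the whole table were. Within the suffix 2CIA 6 members were called and the difference of Hbb-bs was -8.93 (limma adjusted p = 4.24e-06).

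**Figure D4:**
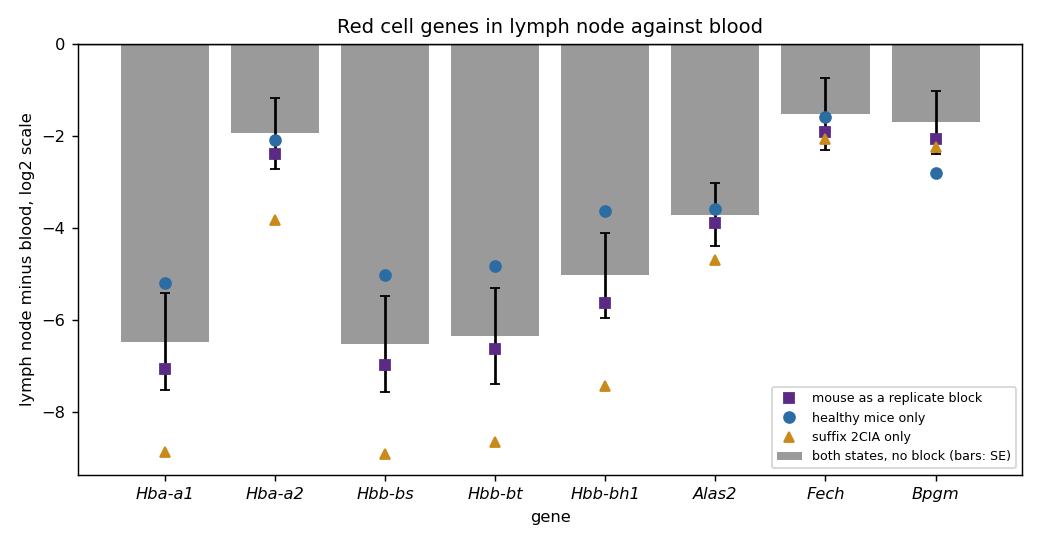
Lymph node minus blood for the 8 red cell genes that passed the filter, as differences of scaled log2(UPM + 10). Grey bars show the fit over both states with error bars of 1 SE, and points show the fit with the mouse as a block, healthy mice alone and libraries of suffix 2CIA alone. Every value lay below 0, from -8.93 for Hbb-bs within suffix 2CIA to -1.53 for Fech in the fit over both states.

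Whether the CIA difference was unlike in the 2 organs was tested as an interaction. No member was called or had an unadjusted limma p under 0.05. None of 4857 genes was called either (0%), although 8.42% of genes had an unadjusted limma p under 0.05. The estimates (difference in lymph node minus difference in blood) were -3.11 ± 2.09 for Hbb-bt and -3.07 ± 2.09 for Hbb-bs (SE; limma adjusted p = 0.673 and 0.675), and 2.23 ± 1.37 for Bpgm (limma adjusted p = 0.659). Within the suffix 2CIA the globin estimates turned, to 1.54 for Hbb-bt and 1.70 for Hbb-bs. With 1 mouse left out, Hbb-bt ran from -4.86 to -1.60 and Hbb-bs from -4.95 to -1.55 (without H3 and H7), and Bpgm from 1.17 to 4.07 (without S7 and S2).

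Spleen, joint, muscle, thymus, skin and lung had 1 mouse per state, so their values carry no test. The largest contrast was in the spleen. Hbb-bs stood at 421 UPM in H6 and 68104.5 UPM in S1 and Hba-a1 at 89.6 and 14344 UPM, 162-fold and 160.2-fold higher in S1. Hbb-bt was at 8.61 and 8375 UPM and Fech at 24.97 and 178 UPM. Hbb-bh1 (529.8 UPM), Slc4a1 (439.6), Alas2 (188), Bpgm (80.9) and Hba-a2 (12.9) were above 0 in S1 and listed at 0 in H6. Of 532 barcodes of S1, 138 (25.9%) held at least 10% adult globins, 40 of all barcodes lay between 8% and 12%, and the highest of 167 barcodes in H6 held 0.181%. Within the spleen of S1, Slc4a1 was at 1623 UPM in the globin-richest 10% of barcodes and 295 UPM in the rest.

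Other red cell genes, in 8 lists of 66 genes of which 63 were rows of the table, were counted beside the members. In the spleen of S1 60 of these 63 were above 0 and in the spleen of H6 27, and 56 were higher in S1 and 4 lower. Of all 23013 genes, 61.5% were above 0 in S1 and 44.8% in H6, and 36.9% were higher in S1 and 28.8% lower. The S1 library was deeper (4633747 against 1161398 units), while rare genes had been kept in both. The joint of S1 with suffix 2CIA, which was deeper still at 7881428 units, had 49 above 0, beside 16460 of all 23013 genes. Blood had 8 (S6) to 44 (H4, suffix CIA), beside 2705 and 11142 of all genes. These counts therefore also depend on how many genes a library held, and are no measure of red cell content alone.

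All 16 genes of the membrane and skeleton list, all 9 transcription factors, all 7 of haem synthesis and all 4 receptors were above 0 in the spleen of S1. Chosen after their values were seen, 8 of the 63 genes were above 0 in that library and no other, as were 401 of all 23013 genes (1.74%): Ank1 (69.1 UPM), Epb42 (25.9) and Dmtn (24.4) of the membrane skeleton, the blood group proteins Kel (68.2) and Rhag (57.4), the erythropoietin receptor Epor (25.9), the repressor Gfi1b (20.1) and the pyruvate kinase Pklr (5.83). In 19 libraries the rarest genes were mostly missing, so being listed at 0 elsewhere can come from that. The next genes were also chosen after their values were seen. The master regulators Gata1 and Klf1 stood there at 17.7 and 36.0 UPM, while in blood Gata1 reached 2.81 UPM, in H7, and Klf1 3.28 UPM, in H6. Alad, the enzyme after Alas2, was at 352 UPM in S1 and 59.4 UPM in H6. Neutrophil markers also differed, at 97295 UPM in S1 and 4365 UPM in H6, and the 2 spleens carry different title suffixes. State, mouse and suffix cannot be told apart in the spleen.

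**Figure D5:**
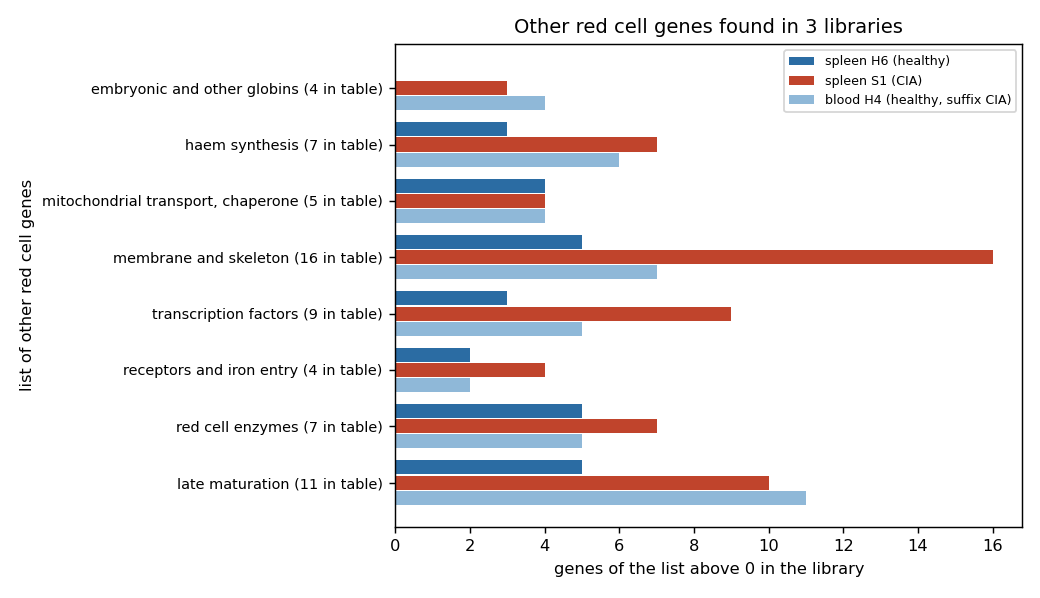
Number of genes above 0 in 8 lists of other red cell genes, in the spleens of H6 (healthy) and S1 (CIA) and in a blood library of H4 (healthy, suffix CIA). The spleen of S1 held all 16 membrane and skeleton genes and all 9 transcription factors, the blood library 7 and 5, and the spleen of H6 5 and 3. Of all genes, 14148, 11142 and 10307 were above 0 in these libraries, in the same order.

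Joint and muscle showed smaller contrasts that did not run one way. In the joint, adult globins were 1.97% in H3 and 3.92% in S1, and the 2 libraries of S1 gave 0.854% (suffix CIA) and 4.15% (suffix 2CIA), on either side of H3. In the muscle they were 2.79% in H6 and 1.41% in S1, a difference of -1.38 percentage points that turned to 0.249 when each distinct barcode profile was taken only 1 time. Hba-a1 was 7.46-fold lower in the muscle of S1 (889 against 6635 UPM) and Hbb-bs 1.48-fold (12716 against 18823 UPM), whereas Hbb-bh1 was 4.21-fold higher (from 105 UPM). Red cells had been lysed in the muscle of H6 and not in that of S1, and neutrophil markers were at 104030.3 and 18320.3 UPM, and their suffixes differ, so state cannot be told apart from lysis, mouse or suffix.

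Thymus, skin and lung held next to no red cell RNA. Hbb-bs was at 168 and 251 UPM in the thymus of H6 and S1, at 15.9 and 47.9 UPM in skin, and at 41.9 UPM and listed at 0 in lung. Alas2 and Slc4a1 were listed at 0 in all 6 libraries.

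Beyond the members, the lists of other red cell genes gave few tested genes. In lymph node against blood, Hbb-y was called lower (-4.70 ± 0.80, limma adjusted p = 0.00101), as were Epb41 of the membrane skeleton (-1.64 ± 0.40, limma adjusted p = 0.0137), the peroxidase Gpx1 (-1.18 ± 0.33, limma adjusted p = 0.0256) and Bnip3l, which removes mitochondria from reticulocytes (-1.56 ± 0.46, limma adjusted p = 0.0286). Epb41, Gpx1 and Bnip3l are also active in many other cells. The transport, transcription factor, receptor and haem synthesis lists had no call: the 1 tested gene of mitochondrial transport was Slc25a37 (-1.37 ± 0.72, limma adjusted p = 0.201), the transcription factors tested were Lmo2 and Bcl11a, the receptor was Tfrc (0.94 ± 0.46, limma adjusted p = 0.167), and no haem synthesis gene passed the filter. The late maturation gene Ube2l6 (-1.26 ± 0.76) did not pass (limma adjusted p = 0.269). In blood and in lymph node no gene of these lists was called between CIA and healthy mice, and the lowest limma adjusted p was 0.472 in blood (Tfrc, -2.38 ± 1.01) and 0.962 in lymph node (Hbb-y, -3.75 ± 1.13).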

How the data were processed

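The deposited table holds, per the study's methods, unique molecular identifiers from Drop-seq tools after alignment with STAR to GRCm38 (the submitters' processing notes list STAR, Picard and bcl2fastq, and the builds GRCh38 and mm9). The authors dropped barcodes with few reads, transcripts or genes and then smoothed values over neighbouring barcodes, so the deposited values are a smoothed signal and not counts; 8282 columns held 4590 distinct profiles. Intervals and limits that need counts are not given. No doublets were called or removed here.

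Units were summed per mouse and organ (26 sums). Tests used trimmed-mean scaling (30% of log ratios and 5% of levels trimmed at each end), a mean level of 25 UPM or more, log2(UPM + 10) and limma 3.58.1 (R 4.3.3) with a mean-variance trend and Benjamini-Hochberg adjustment over all genes; a call is an adjusted p under 0.05. On this scale the change of low genes is understated. Genes below the filter had exact permutation tests. Levels in the text are relative to library totals. Symbols came from RefSeq for 21404 of 23013 rows, and 3.39% of units had none. Steps were tested on simulated data.

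Same-numbered blood and lymph node samples were taken to come from 1 mouse, which pairs 6 mice. Their deviations correlated at -0.285 to 0.175, over 0.1 in 1 of 6. The replicate is the mouse, as the labels number it. Libraries with 1 number and both suffixes were taken as 1 mouse, which the labels do not state.

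Members, lists and motifs were chosen with earlier results of these data known. Named genes were the members, up to 3 per list with the smallest p in lymph node against blood, and the 8 most alike; exceptions are marked, and some genes are not reported here. Alternatives tried were other scalings, pseudocount, filter, trend, distinct profiles, single libraries, suffix, block and leaving out each mouse.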

Additional observations from a re-analysis of the deposited data

Results flagged for a closer look

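In the healthy lymph nodes, 5 of the 9 red cell genes had a value in H7 far from the other 3 mice by Dixon's criterion for 4 samples. Hbb-bs was at 108280 UPM, next highest 16301 UPM. Hbb-bt was at 12407 UPM, next highest 1584 UPM. Alas2 was at 184 UPM, next highest 10.0 UPM. Slc4a1 (18.1 UPM) and Bpgm (47.8 UPM) were listed at 0 in the other 3 mice, so that any value above 0 in H7 would have met the criterion, and these 2 carry no weight. The criterion was applied to UPM without logs, where Hbb-bs ran from 81.5 to 108280 UPM, and not on the log2 scale of the tests. Its nominal rate of about 1 in 20 holds for normally spread values, which was not tested here, so no chance rate is given. In all, 18 groups were examined, and the 5 flags share 1 library and are not separate events. Healthy blood gave none.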

How the results depend on the processing

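In CIA against healthy blood no member was called under 15 of 16 alternatives, and 2 were without the filter on low values, among 12 genes called in all. In lymph node 4 members were called without the filter, among 9 genes in all, and 0 to 4 when 1 mouse was left out (4 without H3). The lymph node difference of Hbb-bs turned to 0.0264 within suffix 2CIA. Lymph node against blood gave 5 members, 5 to 6 with 1 mouse left out, 6 with the mouse as a replicate block, over distinct profiles and within suffix 2CIA, 7 with each library as its own sample, and 0 with healthy mice only. The interaction had 0 calls throughout. Its estimates changed sign within suffix 2CIA (Hba-a1 1.98, Hbb-bs 1.70, Hbb-bt 1.54, Hbb-bh1 1.71, Alas2 1.52), for Hba-a2 with pseudocount 1 (-0.20), with the replicate block (-0.63) and with a mouse left out (-0.59 to 1.43), for Alas2 over distinct profiles (0.0804), single libraries (0.25) and a mouse left out (-0.97 to 0.63), and for Fech with total units (-0.0237), median of ratios (-0.0486), pseudocount 1 (-0.14), the replicate block (-0.70) and a mouse left out (-0.68 to 1.57). The replicate block changed no member's call other than that of Hba-a2 in lymph node against blood. Within suffix 2CIA, Hba-a2 and Alas2 fell below the filter in lymph node and have no value. The cause of these changes was not tested.

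Over all genes, calls ran from 0 to 23 in blood (4 as reported), 0 to 9 in lymph node (1), 2 to 1103 in lymph node against blood (758; 143 without H4, 239 without H7, 389 without S2, 398 without S7) and 0 to 1 in the interaction (0). With median of ratios, 271 genes were higher and 163 lower in lymph node than blood, against 625 and 133 as reported. The median of all genes in blood was -0.63 as scaled and -0.10 with total units. Smoothing and the missing rare genes limit what a level near 0 can show. CIA minus healthy adult globins in percent of units moved in joint from 1.95 to 1.05 over distinct profiles and 2.18 within suffix 2CIA, in spleen from 9.03 to 6.74, in skin from 0.00320 to 0.00538, and turned in muscle from -1.38 to 0.249.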
